A study of Arabidopsis thaliana with 23 samples.

Results

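The 9 genes described here make or break down galactinol and raffinose in Arabidopsis thaliana, and were taken by locus identifier from a table of 27655 genes: galactinol synthases GOLS1 (AT2G47180), GOLS2 (AT1G56600), GOLS3 (AT1G09350) and GOLS4 (AT1G60470), raffinose synthase RS5 (AT5G40390), stachyose synthase RS4 (AT4G01970), DIN10 (AT5G20250) and SIP2 (AT3G57520) of the raffinose synthase family, and the inositol phosphate synthase MIPS1 (AT4G39800). All 9 were found. RefSeq names AT5G40390 SIP1, a symbol that it also gives to AT1G55740, and it names AT4G01970 STS.

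Raffinose is a sugar that plants build from sucrose, and it gathers in leaves and seeds under drought, cold, heat and salt. MIPS makes inositol phosphate from glucose 6-phosphate, galactinol synthases join inositol to galactose, and raffinose synthases pass that galactose from galactinol to sucrose. Alkaline alpha-galactosidases, a role reported for SIP2 in Arabidopsis, take it off again.

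mRNA was measured in whole seedlings of 4 groups. They were sos2-2 in NaCl (3 libraries), sos2-2 on MS medium (2 libraries), WT in NaCl (3 libraries) and WT on MS (3 libraries). The sos2-2 line is a mutant of SOS2, a kinase of the pathway that exports sodium, and the design text calls the control line gl1. All seedlings had 2 days of cold and then 10 days at 22 °C in constant light, on MS medium with 3% sucrose, and the NaCl groups were then kept in liquid MS medium to which 100 mM NaCl had been added, for 12 hours. The labels leave unsaid whether the MS groups went into liquid as well, so NaCl and that move cannot be told apart. They also do not tie replicates to separate cultures, and p-values here reflect the spread among libraries, which can be technical.

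SOS2 itself, the gene mutated in sos2-2, had between 0.818 and 1.36 TPM across the libraries and was called in none of the comparisons. TPM is a share of transcripts with a fixed total per library; it is per length, so levels can be compared between genes, and it keeps no depth. Plastid transcripts held 65.4% to 79.3% of each library, with the highest share in WT in NaCl replicate 3, and these shares count toward the fixed total. All 7 shoot markers and 7 of 8 root markers reached a mean of 1 TPM, as did 0 of 5 seed markers. In bulk tissue, fewer cells of a type and less RNA per cell cannot be told apart.

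Genes with a mean of at least 1 TPM were tested with limma on log2(TPM + 1), and a gene was called at an adjusted p (Benjamini-Hochberg, all 16564 tested genes) under 0.05. The 6 members GOLS1, GOLS4, RS5, DIN10, SIP2 and MIPS1 passed, and GOLS2, GOLS3 and RS4 were below the level. Every log2 change below is relative to the median gene, unless said to be as deposited. The median gene's own change was −0.21 for NaCl in WT, 0.16 for NaCl in sos2-2, −0.05 for sos2-2 against WT on MS and 0.32 for sos2-2 against WT in NaCl. For the difference of the salt responses, sos2-2 minus WT, it was 0.39. Adjusted p-values belong to the values as deposited, and folds are ratios of group mean TPM as deposited.

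The sequences upstream of 4 genes are shown because their mRNA moved with NaCl: up in both genotypes for GOLS1 and GOLS4, up in sos2-2 for RS5 and down in both for DIN10. Each is the 300 bases before the annotated gene start, 5′ to 3′ on the strand of the gene, from RefSeq on TAIR10.1. Capitals mark ABRE cores (ACGTG, the heart of the abscisic acid response element), with the G-box CACGTG in full where it holds one, and DRE cores (CCGAC, the dehydration element, read as GTCGG on the other strand).

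GOLS1, chr2:19370479-19370778, minus strand: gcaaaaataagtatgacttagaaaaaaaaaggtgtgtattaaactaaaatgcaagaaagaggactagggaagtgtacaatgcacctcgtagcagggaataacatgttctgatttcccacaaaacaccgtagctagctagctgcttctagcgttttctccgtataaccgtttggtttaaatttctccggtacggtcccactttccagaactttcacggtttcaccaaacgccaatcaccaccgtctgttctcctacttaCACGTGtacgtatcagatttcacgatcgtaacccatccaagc

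GOLS4, chr1:22280594-22280893, minus strand: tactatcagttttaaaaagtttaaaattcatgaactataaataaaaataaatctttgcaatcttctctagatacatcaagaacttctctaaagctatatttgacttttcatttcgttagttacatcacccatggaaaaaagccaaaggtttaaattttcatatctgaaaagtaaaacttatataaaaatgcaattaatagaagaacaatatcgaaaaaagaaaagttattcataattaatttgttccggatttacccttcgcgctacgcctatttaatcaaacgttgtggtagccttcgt

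RS5, chr5:16161149-16161448, plus strand: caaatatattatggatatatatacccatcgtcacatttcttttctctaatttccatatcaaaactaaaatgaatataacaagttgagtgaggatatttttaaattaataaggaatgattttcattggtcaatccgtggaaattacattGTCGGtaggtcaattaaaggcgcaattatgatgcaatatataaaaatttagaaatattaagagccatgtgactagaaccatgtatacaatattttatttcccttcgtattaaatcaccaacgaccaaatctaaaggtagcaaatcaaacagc

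DIN10, chr5:6833264-6833563, plus strand: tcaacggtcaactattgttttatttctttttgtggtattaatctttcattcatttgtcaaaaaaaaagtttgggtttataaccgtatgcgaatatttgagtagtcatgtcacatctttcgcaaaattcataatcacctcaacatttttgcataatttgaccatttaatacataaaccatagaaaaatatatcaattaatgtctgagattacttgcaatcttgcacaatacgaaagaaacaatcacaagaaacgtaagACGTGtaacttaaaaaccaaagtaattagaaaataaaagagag

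The GOLS1 window holds 1 G-box at −42 to −37 from the start, and that of DIN10 holds 1 ABRE core at −43 to −39. RS5 has 1 DRE core, at −152 to −148. In GOLS4, which had the largest fold with NaCl of these 4, neither core occurs in the window. SIP2, called lower with NaCl in WT only, is not shown, and its window holds 1 G-box at −60 to −55. Over all 9 genes, 7 windows hold an ABRE core on either strand, against 25.6% of 27443 protein-coding promoters of the same length. DRE cores occur in 3 of 9 (13.9% of all), G-boxes, which contain the ABRE core, in 5 of 9 (7.09%), W-boxes (TTGAC) in 4 of 9 (50.4%) and the heat shock element GAANNTTC in 2 of 9 (11.5%). MIPS1 has the most ABRE cores, 4, of which 3 lie in G-boxes. These are matches of letters and not shown to be bound.

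Levels spanned a wide range. MIPS1 was the most abundant of the 9 in all 4 groups and DIN10 came next. SIP2 and GOLS1 followed, and their ranges overlapped in both NaCl groups. RS5 followed these in every group. RS4 was the lowest in 3 groups, with means of 0.0424 TPM in sos2-2 in NaCl, 0.0555 TPM in WT in NaCl and 0.133 TPM in WT on MS. In sos2-2 on MS, the lowest mean was that of GOLS3.

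**Figure D1:**
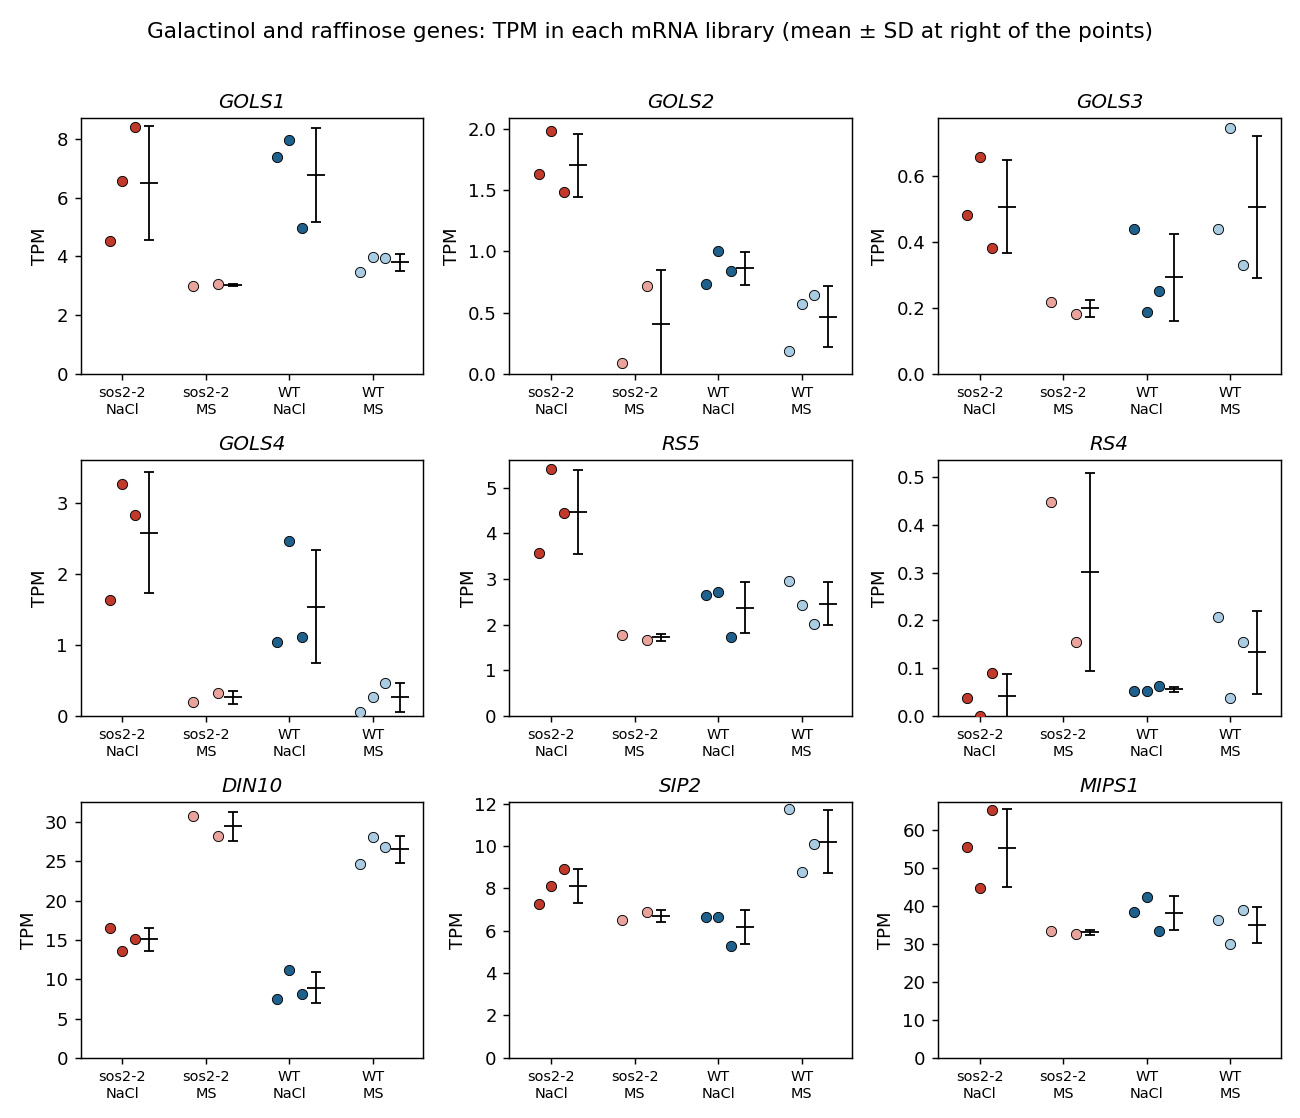
Each panel plots the TPM of 1 gene (vertical axis, from 0) in each of the 11 libraries, by group from left to right: sos2-2 in NaCl, sos2-2 on MS, WT in NaCl and WT on MS; bars at the right of the points are mean ± SD, clipped at 0. GOLS1 and GOLS4 are higher in NaCl than on MS in both genotypes, DIN10 is lower in both, and RS5 and MIPS1 stand highest in sos2-2 in NaCl.

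Of the 4 galactinol synthases, GOLS1 and GOLS4 were tested and both rose with NaCl in sos2-2 and in WT, with GOLS1 the main form and GOLS4 the one of the larger fold. GOLS1 is known from Arabidopsis as a gene of drought, salt and heat. It stood at 4.53, 6.56 and 8.40 TPM in sos2-2 in NaCl, against 3.00 and 3.06 TPM in sos2-2 on MS. In WT it stood at 7.39, 7.98 and 4.96 TPM in NaCl, against 3.47, 3.99 and 3.93 TPM on MS. Every NaCl library was above every MS library of its genotype, as was so for 28.9% of tested genes in sos2-2 and 4.09% in WT. GOLS1 thus averaged 2.14-fold higher in NaCl in sos2-2 (log2 change 0.70, SE 0.23, limma adjusted p = 0.0314) and 1.79-fold higher in WT (0.88, SE 0.21, adjusted p = 0.0494).

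The call of GOLS1 in WT was near the threshold and held in 3 of the 11 fits that left out 1 library, those without WT in NaCl replicate 3 or without sos2-2 in NaCl replicate 1 or 3, with adjusted p between 0.0352 and 0.183 over all 11. In sos2-2 it was lost without sos2-2 on MS replicate 1 (adjusted p = 0.145) or 2 (0.199), without sos2-2 in NaCl replicate 2 (0.0805) or 3 (0.161), and after median centring (0.0625). GOLS1 overlaps ARF1A1C on the opposite strand, a gene at 25.4 to 95.03 TPM, and 0.954% of the 31-base words of its transcript are shared with it. Its part in the result was not tested.

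GOLS4 was near the bottom of the range on MS and well above it in NaCl. It stood at 1.63, 3.27 and 2.84 TPM in sos2-2 in NaCl, against 0.195 and 0.325 TPM in sos2-2 on MS. WT had 1.04, 2.46 and 1.11 TPM in NaCl, against 0.0493, 0.265 and 0.465 TPM on MS. Every NaCl library was above every MS library of its genotype, a separation shown by 28.9% of tested genes in sos2-2 and 4.09% in WT. The mean ratio was 9.91-fold in sos2-2 (log2 change 1.32, SE 0.25, limma adjusted p = 0.00075) and 5.92-fold in WT (1.19, SE 0.22, adjusted p = 0.0112). Adding 1 TPM before the log understates so low a gene, and GOLS4 passed the level for testing through its NaCl libraries. In sos2-2 the call held without each library in turn; in WT it was lost without WT on MS replicate 1 (0.0563) or WT in NaCl replicate 2 (0.0686). GOLS4 shares 3.11% of its 31-base words with GOLS7, which averaged at most 0.0462 TPM in any group.

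GOLS2, a gene of drought and salt in Arabidopsis, was below the level for testing but was also higher in NaCl. Its values were 1.64, 1.99 and 1.49 TPM in sos2-2 in NaCl, against 0.0904 and 0.717 TPM in sos2-2 on MS. WT had 0.735, 1.005 and 0.843 TPM in NaCl, against 0.183, 0.572 and 0.646 TPM on MS. The sos2-2 libraries in NaCl were above all other libraries, WT in NaCl included, and the share of tested genes with that order is not given here. Of tested genes, 28.9% were higher without overlap for NaCl in sos2-2, and 36% for sos2-2 against WT in NaCl. Exact two-sided permutation tests gave p = 0.2 for NaCl in sos2-2, p = 0.1 for NaCl in WT and p = 0.1 for sos2-2 against WT in NaCl, each the smallest that these group sizes allow. In a limma fit with no level filter, GOLS2 was called in 1 comparison, NaCl in sos2-2 (log2 change 0.87, SE 0.20, adjusted p = 0.0175).

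GOLS3, known as a cold gene of the CBF pathway, stayed under 1 TPM in all 11 libraries. It averaged 0.508 ± 0.141 TPM in sos2-2 in NaCl and 0.199 ± 0.0252 TPM in sos2-2 on MS, against 0.293 ± 0.132 TPM in WT in NaCl and 0.505 ± 0.215 TPM in WT on MS (SD, n = 3, 2, 3 and 3). Its mean was higher in NaCl than on MS in sos2-2 and lower in WT, and the difference of these responses had adjusted p = 0.171 in the limma fit with no filter. Its exact permutation p was 0.2 in sos2-2 and 0.3 in WT. The second of its 2 listed transcript models was at 0.178 to 0.259 TPM in the 3 libraries of WT in NaCl and was listed at 0 in every other library. The whole gene was at only 0.187 to 0.441 TPM in those 3 libraries. Such estimates split reads between models, so this split is uncertain at so low a level.

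Together, the 4 galactinol synthases had 8.28, 12.5 and 13.1 TPM in sos2-2 in NaCl, against 3.50 and 4.28 TPM in sos2-2 on MS. In WT the sum was 9.61, 11.6 and 7.17 TPM in NaCl, against 4.14, 5.58 and 5.38 TPM on MS. The shares of the sum are a description, with no test. GOLS1 gave 57.1% ± 6.12 of the sum in sos2-2 in NaCl and 78.5% ± 10.09 in sos2-2 on MS, against 71.6% ± 4.62 in WT in NaCl and 76.2% ± 6.62 in WT on MS. GOLS4 gave 22.5% ± 3.36 in sos2-2 in NaCl and 6.58% ± 1.44 in sos2-2 on MS, against 15.8% ± 5.14 in WT in NaCl and 4.86% ± 3.73 in WT on MS (SD, n = 3, 2, 3 and 3). The GOLS1 shares of the WT groups differed by less than their SDs.

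**Figure D2:**
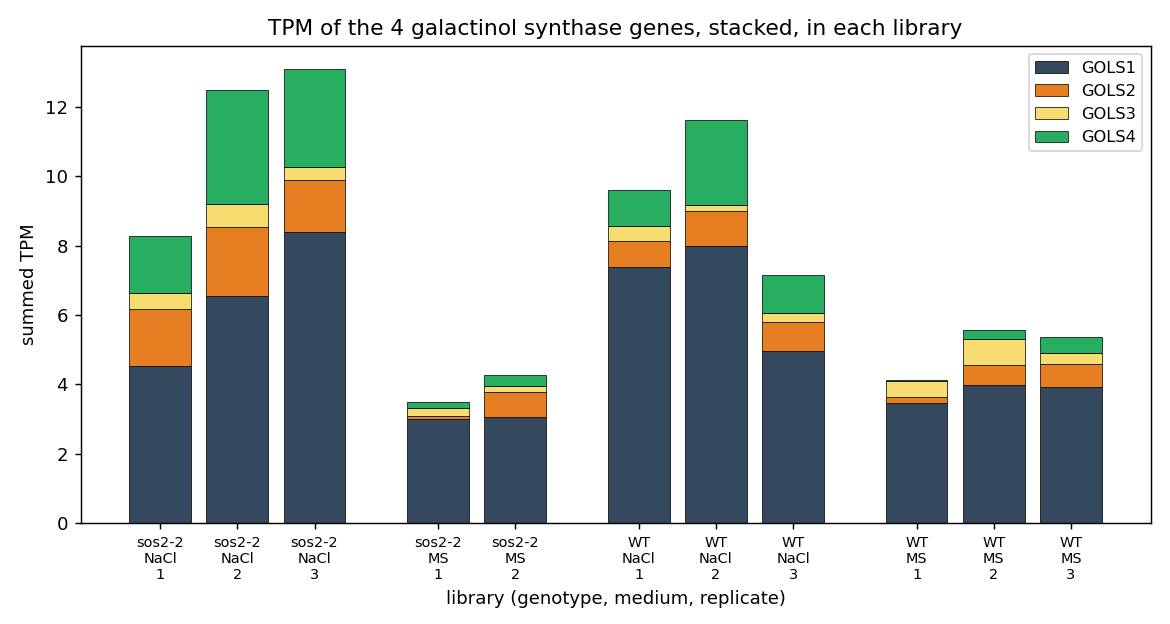
Stacked bars give the TPM (vertical axis, from 0) of GOLS1, GOLS2, GOLS3 and GOLS4 in each library, by group from left to right: sos2-2 in NaCl, sos2-2 on MS, WT in NaCl and WT on MS. Sums run from 7.17 to 13.1 TPM in the 6 NaCl libraries and from 3.50 to 5.58 TPM in the 5 MS libraries, and the GOLS4 segment is thickest in NaCl.

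RS5, the raffinose synthase known for raffinose in stressed leaves, rose with NaCl in sos2-2 and was not called in WT. It stood at 3.56, 5.41 and 4.44 TPM in sos2-2 in NaCl, against 1.78 and 1.66 TPM in sos2-2 on MS. WT had 2.66, 2.72 and 1.72 TPM in NaCl, against 2.95, 2.42 and 2.00 TPM on MS. The WT groups overlapped. Of tested genes, 28.9% were higher without overlap for NaCl in sos2-2, and 36% for sos2-2 against WT in NaCl. For RS5, all 3 libraries of sos2-2 in NaCl were above all 8 others, and the share of tested genes with that order is not given here. The root marker EXPA18, at 5.88 to 6.90 TPM against at most 4.78 TPM elsewhere, and the seed marker OLEO1, at 0.306 to 1.58 TPM against at most 0.137 TPM, also stood highest in these 3 libraries, as MIPS1 and GOLS2 did. The 8 root markers summed to 21.3 ± 2.87 TPM in sos2-2 in NaCl and 17.2 ± 3.32 TPM in sos2-2 on MS, against 14.9 ± 2.00 TPM in WT in NaCl and 18.3 ± 1.65 TPM in WT on MS (SD, n = 3, 2, 3 and 3). Their part in these results was not tested. The mean ratio was 2.60-fold in sos2-2 (log2 change 0.83, SE 0.21, limma adjusted p = 0.00537) and 0.962-fold in WT (0.16, SE 0.19, adjusted p = 0.895). The difference between these responses was 0.65, or 1.04 as deposited (SE 0.28, limma adjusted p = 0.0631), and so was not called. It passed without WT in NaCl replicate 1 (0.0131) or sos2-2 in NaCl replicate 1 (0.0303). Without WT in NaCl replicate 1, however, 3208 of all tested genes were called higher for this difference, against 326 with every library. Without sos2-2 on MS replicate 2 the call in sos2-2 was lost (0.0751).

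Between the genotypes in NaCl, RS5 averaged 1.89-fold higher in sos2-2 than in WT (log2 change 0.38, SE 0.19, limma adjusted p = 0.0163). The call depended on the scale: 18.9% of all tested genes were called higher in this comparison, and after median centring RS5 had adjusted p = 0.196. It was also lost without WT in NaCl replicate 3 (0.0862), sos2-2 in NaCl replicate 2 (0.0620) or sos2-2 in NaCl replicate 3 (0.0512).

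RS4, a stachyose and raffinose synthase known from seeds, was close to 0. It was at 0.0379, 0 and 0.0892 TPM in sos2-2 in NaCl, against 0.449 and 0.154 TPM in sos2-2 on MS. WT had 0.0522, 0.0525 and 0.0617 TPM in NaCl, against 0.206, 0.0368 and 0.155 TPM on MS. The groups of sos2-2 did not overlap, with an exact permutation p of 0.2, the smallest possible for 3 against 2. Of tested genes, 7.56% were lower without overlap for NaCl in sos2-2. Seed markers summed to 3.97 ± 2.21 TPM in sos2-2 in NaCl and 1.28 ± 1.31 TPM in sos2-2 on MS, against 0.878 ± 0.452 TPM in WT in NaCl and 0.572 ± 0.342 TPM in WT on MS (SD, n = 3, 2, 3 and 3), and 3 of the 5 were at 0 in at least 1 library; their part in the result was not tested.

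**Figure D3:**
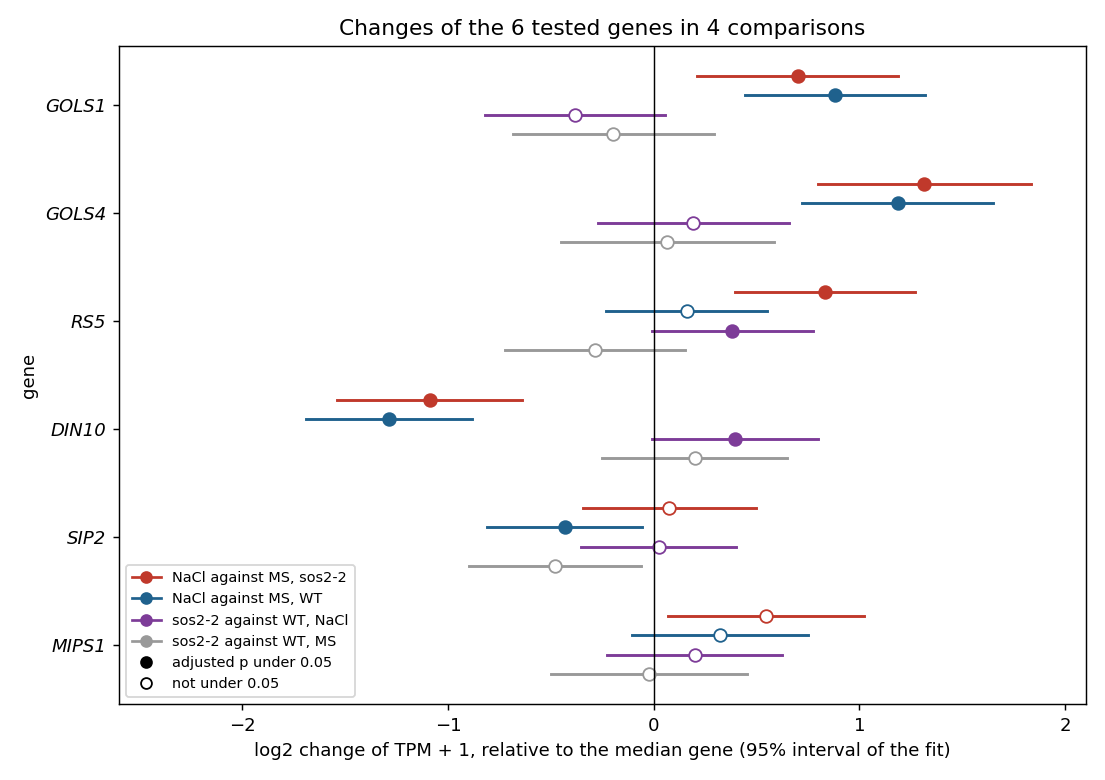
Points give the log2 change of TPM + 1 relative to the median gene (horizontal axis) and lines its 95% interval from the limma fit, for the 6 tested genes in 4 comparisons; filled points have an adjusted p under 0.05 for the values as deposited. GOLS1, GOLS4 and DIN10 are filled for NaCl in both genotypes, RS5 in sos2-2 and SIP2 in WT. The genotype difference of RS5 and DIN10 in NaCl is filled too, though its interval reaches 0 on this scale.

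DIN10, named for its induction in the dark and when sugar runs out, fell with NaCl in both genotypes. It stood at 16.5, 13.6 and 15.2 TPM in sos2-2 in NaCl, against 30.8 and 28.2 TPM in sos2-2 on MS. WT had 7.45, 11.2 and 8.09 TPM in NaCl, against 24.7, 28.1 and 26.9 TPM on MS. Every NaCl library was below every MS library, a separation that 7.56% of tested genes showed in sos2-2 and 22.7% in WT. In NaCl every sos2-2 library was above every WT library, as for 36% of tested genes. DIN10 averaged 0.511-fold of its MS level in sos2-2 (log2 change −1.09, SE 0.21, limma adjusted p = 0.0119) and 0.335-fold in WT (−1.29, SE 0.19, adjusted p = 0.000136). The call in WT held without each library in turn, and that in sos2-2 was lost without sos2-2 on MS replicate 1 (0.105) or 2 (0.0775).

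In NaCl, DIN10 averaged 1.69-fold higher in sos2-2 than in WT (log2 change 0.40, SE 0.19, limma adjusted p = 0.0172). After median centring the adjusted p was 0.196, and it was over 0.05 without WT in NaCl replicate 3 (0.0590), sos2-2 in NaCl replicate 1 (0.0716) or sos2-2 in NaCl replicate 3 (0.0587). The difference of the 2 salt responses was 0.18 (SE 0.29, adjusted p = 0.221).

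For DIN10, 4 transcript models are listed, written here by their suffix. Model 4 held 68.8% ± 0.811 of its TPM in sos2-2 in NaCl and 61.9% ± 7.33 in sos2-2 on MS, against 65.8% ± 7.49 in WT in NaCl and 62.1% ± 4.84 in WT on MS (SD, n = 3, 2, 3 and 3). Model 2 held 23.5% to 29.1% on average in the 4 groups. Both fell with NaCl, in a limma fit over 18940 transcripts that called 3.32% in sos2-2 and 3.64% in WT: model 4 by adjusted p = 0.0495 in sos2-2 and 0.00195 in WT, and model 2 by 0.0284 in sos2-2 and 0.00545 in WT. In that fit GOLS1 was not called for NaCl in sos2-2 (0.0841) or in WT (0.0984). GOLS4 (0.0632) and model 1 of SIP2 (0.0509) were not called for NaCl in WT either. GOLS4 (0.0167) and RS5 (0.0269) were called for NaCl in sos2-2. DIN10 overlaps AT5G20260 on the opposite strand, a gene at no more than 0.265 TPM.

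SIP2, reported as a raffinose-cleaving alkaline alpha-galactosidase, fell with NaCl in WT and was not called in sos2-2. It stood at 7.28, 8.12 and 8.90 TPM in sos2-2 in NaCl, against 6.52 and 6.89 TPM in sos2-2 on MS. WT had 6.66, 6.65 and 5.26 TPM in NaCl, against 11.7, 8.78 and 10.11 TPM on MS. The NaCl libraries were all above the MS libraries in sos2-2, as for 28.9% of tested genes. They were all below the MS libraries in WT, as for 22.7%. The mean ratio was 1.21-fold in sos2-2 (log2 change 0.08, SE 0.20, limma adjusted p = 0.562) and 0.606-fold in WT (−0.43, SE 0.18, adjusted p = 0.0334). The difference of these responses was 0.49, or 0.876 as deposited (SE 0.27, limma adjusted p = 0.0955). It was called only without WT in NaCl replicate 1 (0.0260). That fit called 3208 of all tested genes higher for this difference, against 326 with every library.

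The fall of SIP2 in WT was lost without WT on MS replicate 1 (adjusted p = 0.158) or 3 (0.101), without WT in NaCl replicate 2 (0.0817) or 3 (0.129), and with values rescaled to a fixed total of nuclear genes (0.0910). On MS, SIP2 was lower in every sos2-2 library than in every WT library, as for 22.7% of tested genes (log2 change −0.48, SE 0.20, limma adjusted p = 0.141); after median centring the adjusted p was 0.0330. The summed shoot markers were 8563 ± 1541 TPM in sos2-2 in NaCl and 7421 ± 198 TPM in sos2-2 on MS, against 6568 ± 2202 TPM in WT in NaCl and 13335 ± 767 TPM in WT on MS (SD, n = 3, 2, 3 and 3). SIP2 too had its highest group mean in WT on MS and its lowest in WT in NaCl. The sum is mostly RBCS1A and LHCB1.3, and single markers had other orders: LHCB2.1 was highest in sos2-2 in NaCl (451 TPM), RCA was highest (322 TPM) and RBCS1A lowest (3532 TPM) in sos2-2 on MS, and CA1 was lowest in sos2-2 in NaCl (79.96 TPM). The part of the markers in the result was not tested.

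MIPS1, which commits glucose phosphate to inositol, was highest in sos2-2 in NaCl. It stood at 55.5, 44.8 and 65.3 TPM in sos2-2 in NaCl, against 33.5 and 32.5 TPM in sos2-2 on MS. WT had 38.3, 42.3 and 33.4 TPM in NaCl, against 36.4, 29.8 and 39.0 TPM on MS. The lowest library of sos2-2 in NaCl lay above all 8 others, and the share of tested genes with that order is not given here. Of tested genes, 28.9% were higher without overlap for NaCl in sos2-2, and 36% for sos2-2 against WT in NaCl. The mean ratio of MIPS1 was 1.67-fold in sos2-2 (log2 change 0.55, SE 0.23, limma adjusted p = 0.0757) and 1.08-fold in WT (0.32, SE 0.20, adjusted p = 0.737), so MIPS1 was not called. It passed in sos2-2 after median centring (0.0450), with that nuclear rescaling (0.0367) and without WT in NaCl replicate 1 (0.0478). The fit without that library called 1230 genes higher for NaCl in sos2-2, against 937 with every library. MIPS1 shares 1.07% of its 31-base words with MIPS2.

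By comparison, NaCl in sos2-2 called 4 of the 6 tested members, GOLS1, GOLS4 and RS5 higher and DIN10 lower, beside 6.59% of all tested genes (5.66% higher and 0.936% lower). NaCl in WT also called 4, GOLS1 and GOLS4 higher and DIN10 and SIP2 lower, beside 9.41% of all genes (1.7% higher and 7.71% lower). Between sos2-2 and WT on MS 0 members were called by limma, beside 2.79% of all genes, and SIP2 was the only one with an unadjusted p under 0.05 (0.0158). In NaCl, sos2-2 against WT called RS5 and DIN10 higher, beside 19.3% of all genes, and the difference of the salt responses called 0 members, beside 2.04%, with unadjusted p under 0.05 for RS5 (0.00157) and SIP2 (0.00435). GOLS4 was among the 6 only because of its NaCl libraries. The comparisons share groups, so their calls are not independent.

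The neighbours of the route were taken from 9 lists of 45 genes, 28 of them tested. NaCl in sos2-2 called 4 of the 28 higher and 4 lower, beside 5.66% and 0.936% of all tested genes. NaCl in WT called 3 higher and 4 lower, beside 1.7% and 7.71%. In the inositol list, MIOX1, an oxygenase that breaks inositol down, rose to 6.59 ± 3.63 TPM in sos2-2 in NaCl, against 0.566 ± 0.0644 TPM on MS (log2 change 2.01, SE 0.31, limma adjusted p = 0.00016; SD, n = 3 and 2). In WT it rose to 4.81 ± 1.77 TPM in NaCl, against 1.23 ± 0.362 TPM on MS (1.56, SE 0.27, adjusted p = 0.00611; SD, n = 3 each). MIOX1 passed the level for testing through its NaCl libraries. MIPS3, a relative of MIPS1, fell in both genotypes, by 1.14 in sos2-2 (limma adjusted p = 0.0123) and by 0.94 in WT (0.00235) on the log2 scale. MIOX2 rose in sos2-2 (0.93, adjusted p = 0.0255), a call lost after median centring (0.0565). In sos2-2, MIPS3 was not called without sos2-2 on MS replicate 1 (0.0732) or 2 (0.122) or sos2-2 in NaCl replicate 2 (0.0608), and MIOX2 was not called without sos2-2 on MS replicate 1 (0.0645) or 2 (0.308) or sos2-2 in NaCl replicate 2 (0.102) or 3 (0.0932).

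Sucrose is the acceptor for raffinose, and 3 of the 4 listed sucrose phosphate synthase genes were tested. SPS2F rose in sos2-2, to 5.19 ± 1.26 TPM in NaCl against 1.31 ± 0.383 TPM on MS (log2 change 1.25, SE 0.20, limma adjusted p = 0.00014; SD, n = 3 and 2). SPS1F rose in WT, to 33.1 ± 1.67 TPM in NaCl against 16.5 ± 3.31 TPM on MS (1.18, SE 0.20, adjusted p = 0.00751; SD, n = 3 each). SPS1F in sos2-2 stood at 39.8 ± 5.29 TPM in NaCl against 23.9 ± 4.65 TPM on MS (adjusted p = 0.0722; SD, n = 3 and 2), and SPS2F in WT at 1.81 ± 0.174 TPM in NaCl against 1.14 ± 0.160 TPM on MS (0.160; SD, n = 3 each), with no overlap in either. Higher without overlap in NaCl were 28.9% of tested genes in sos2-2 and 4.09% in WT. The difference of the salt responses was not called for SPS1F (limma adjusted p = 0.572) or SPS2F (0.0539). SPS2F was also higher in sos2-2 than in WT in NaCl (0.81, SE 0.18, adjusted p = 0.000417). SPS4F fell in WT by 0.56 on the log2 scale (adjusted p = 0.0458), a call that held in 4 of the 11 fits without 1 library. SUS4, a sucrose synthase, fell with NaCl in sos2-2 by 1.67 (adjusted p = 0.012) and was lower in sos2-2 than in WT in NaCl (−1.23, adjusted p = 0.0482). Without sos2-2 on MS replicate 2 the fall of SUS4 was not called (0.183), and the genotype difference held in 3 of the 11 such fits.

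Among the other dark-inducible genes, 5 of 7 were tested, and DIN1 and DIN11 fell as DIN10 did. DIN1 fell to 3.07 ± 0.248 TPM in sos2-2 in NaCl, against 8.30 ± 0.287 TPM on MS (log2 change −1.36, SE 0.22, limma adjusted p = 0.00216; SD, n = 3 and 2), and to 1.44 ± 0.322 TPM in WT in NaCl, against 8.52 ± 2.68 TPM on MS (−1.72, SE 0.20, adjusted p = 1.76e-05; SD, n = 3 each). DIN11 fell by 1.70 in sos2-2 (adjusted p = 0.00207) and by 1.38 in WT (0.0012). DIN2, a beta-glucosidase gene, rose in WT (1.12, limma adjusted p = 0.0382), and DIN3 and DIN4 were not called. DIN2 passed the level for testing through its NaCl libraries. In NaCl, DIN1 (0.42, adjusted p = 0.0176) and DIN11 (0.50, 0.035) were higher in sos2-2 than in WT, as DIN10 was, and after median centring neither was called (0.293 and 0.263). Without WT in NaCl replicate 3 neither was called (DIN1 0.0816, DIN11 0.120), nor without sos2-2 in NaCl replicate 3 (0.0677 and 0.112), and DIN11 was not called without sos2-2 in NaCl replicate 1 (0.0905). DIN2 was not called after median centring either (0.0691), nor without WT on MS replicate 1 (0.177) or 3 (0.0742) or WT in NaCl replicate 2 (0.153) or 3 (0.161).

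**Figure D4:**
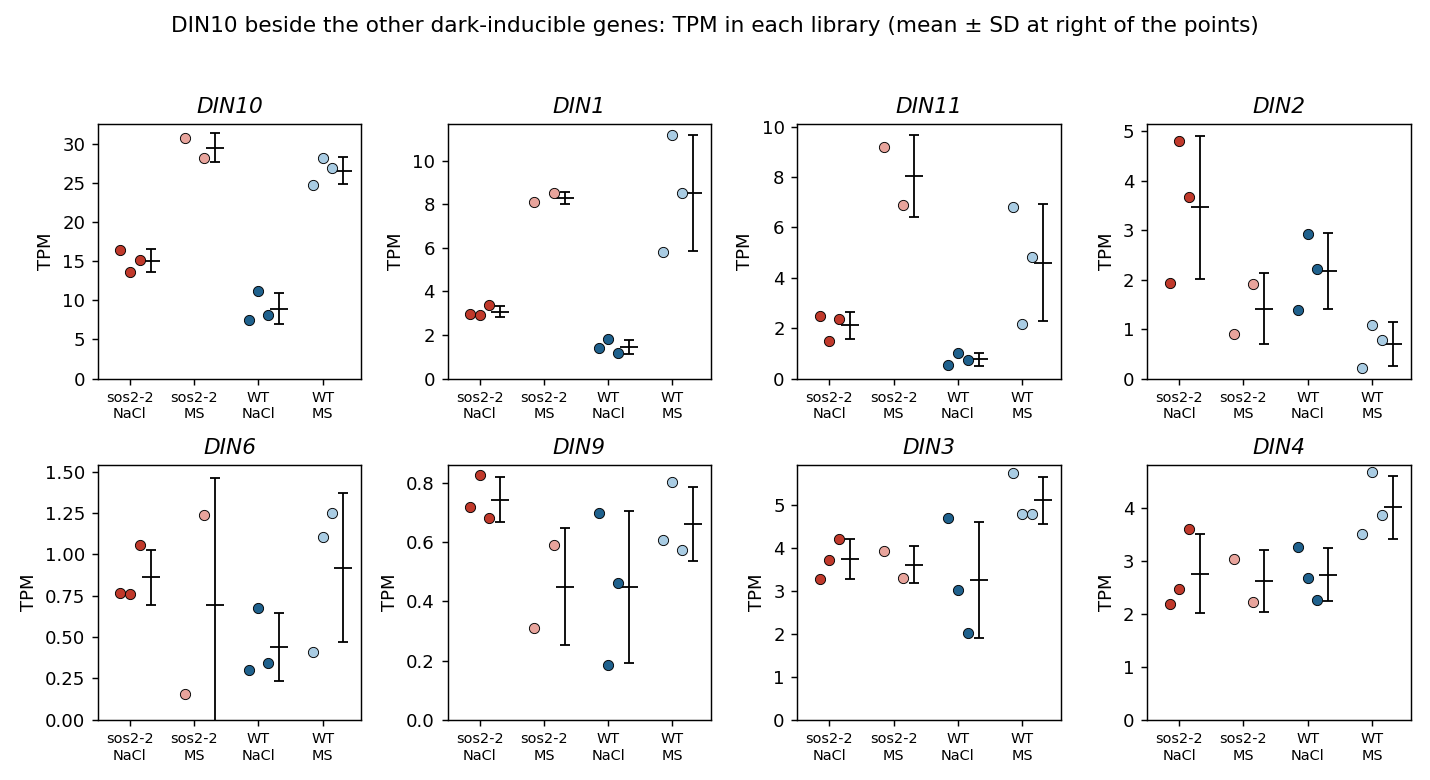
Panels plot the TPM (vertical axis, from 0) of DIN10 and 7 other dark-inducible genes in each library, by group from left to right: sos2-2 in NaCl, sos2-2 on MS, WT in NaCl and WT on MS; bars at the right of the points are mean ± SD, clipped at 0. DIN10 and DIN1 are lower in NaCl than on MS in both genotypes with no overlap, DIN11 likewise, while DIN2 has its highest values in NaCl.

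Of 6 transcription factors reported upstream of GOLS genes, 2 were tested. DREB2A, which binds the dehydration element, rose to 5.19 ± 0.217 TPM in sos2-2 in NaCl, against 1.22 ± 0.435 TPM on MS (log2 change 1.33, SE 0.23, limma adjusted p = 0.00043; SD, n = 3 and 2). WT had 1.89 ± 0.750 TPM in NaCl and 2.43 ± 0.644 TPM on MS (SD, n = 3 each), and DREB2A was not called there. The difference of the responses was 1.37 (SE 0.31, adjusted p = 0.00447), and DREB2A was higher in sos2-2 than in WT in NaCl (0.82, adjusted p = 0.00164). Both calls were lost after median centring (0.192 and 0.0895). IMPL1, an inositol monophosphatase-like gene, was called higher in sos2-2 than in WT in NaCl (0.39, adjusted p = 0.0461), was not called after median centring (0.340), and kept the call in 4 of the 11 fits without 1 library.

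The genes whose log2(TPM + 1) was most like each member's over the 11 libraries are given as a description, since libraries of a group and all totals are shared. For DIN10 they were DIN1 (r = 0.972) and BZO2H3 (0.969), which RefSeq also names bZIP63. GOLS4 was most like FAR4 (0.978) and ANNAT7 (0.975), and GOLS1 most like AT3G61680 (0.962) and AT1G52560 (0.958). RS5 was most like AMT1;3 (0.978), an ammonium transporter gene, and ESE3 (0.968). SIP2 was most like PSBO1 (0.957), a gene of the oxygen-evolving complex of photosystem II, and AT4G09160 (0.954), and MIPS1 most like ABCG29 (0.974) and AT5G04860 (0.973). Among the members, GOLS1 went with GOLS4 (r = 0.860) and against DIN10 (−0.777).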

How the data were processed

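The values used were TPM per transcript for 48359 transcripts in 11 mRNA libraries, deposited by the authors. The submitters' processing notes name kallisto 0.46.2, sleuth 0.30.0 and build TAIR10; whether counting used strand is not stated there. Depth per library is unknown, because TPM does not keep it. The small RNA libraries were not used here.

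TPM was summed to 27655 genes, of which 27445 matched a TAIR10.1 RefSeq locus. Genes with a mean of at least 1 TPM were tested as log2(TPM + 1) in 1 limma 3.58.1 fit (R 4.3.3, intensity trend) over the 4 groups, with 5 contrasts, after tests on simulated data. Genes below it had exact permutation tests over libraries. The members and lists were chosen with earlier results of these data known. Named were all 9 members, SOS2, the 12 pathway genes of largest change among the 14 called, and the 2 genes most like each tested member. Alternatives were the pseudocount, the level filter, the scaling, the trend, the samples fitted, a replicate block and each library left out; removal of a purine and length trend was added after seeing the data.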

Additional observations from a re-analysis of the deposited data

Results flagged for a closer look

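DREB2A, the transcription factor gene whose salt response differed between the genotypes, changed by 1.33 in sos2-2 and by −0.06 in WT on the log2 scale, relative to the median gene. The difference was 1.37, or 1.76 as deposited (SE 0.31, limma adjusted p = 0.00447). Every library of sos2-2 in NaCl was above both libraries of sos2-2 on MS, as for 28.9% of tested genes. After median centring the limma adjusted p of the difference was 0.192.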

How the results depend on the processing

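With the main settings, 4 members were called for NaCl in sos2-2, 4 for NaCl in WT, 0 between genotypes on MS and 2 between genotypes in NaCl. For the difference of the salt responses, 0 were called. Only the larger moves of these counts under other settings are listed. Smaller moves also occurred: for NaCl in WT, GOLS1 was not called with no filter (limma adjusted p = 0.102). Nor was SIP2 with nuclear rescaling (0.0910) or in a fit of the 2 groups (0.0626). With a mean of at least 5 TPM required, GOLS4 (mean 1.24 TPM) and RS5 (2.85 TPM) were no longer tested. The counts were then 2 for NaCl in sos2-2 and 1 for genotype in NaCl. On MS, 1 was called after median centring and 1 with a purine and length trend removed. For genotype in NaCl, 0 were called after median centring, with nuclear genes rescaled or with that trend removed. Leaving out 1 library at a time gave 1 to 5 for NaCl in sos2-2, 1 to 4 for NaCl in WT, 0 on MS, 0 to 3 in NaCl and 0 to 2 for the difference. Same-numbered libraries did not deviate together in every pair (r between −0.526 and 0.294), so the numbers were not taken to pair them; with a replicate block, RS5 was called for the difference of responses (0.72, limma adjusted p = 0.0425), 1 member in all, and GOLS1 was not called for NaCl in WT (0.0506).

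Of the 28 tested pathway genes, 8 were called for NaCl in sos2-2, 7 for NaCl in WT, 0 on MS, 8 for genotype in NaCl and 1 for the difference. Over all tested genes the shares called were 6.59%, 9.41%, 2.79%, 19.3% and 2.04% in the same order. Only the larger moves of the pathway counts are listed. With at least 5 TPM required, fewer of the 28 were tested, and the counts were 3, 3, 0, 4 and 0. Median centring gave 2 on MS, 3 for genotype in NaCl and 0 for the difference; nuclear rescaling gave 1, 1 and 0. Fits of the 2 groups compared gave 3 on MS and 5 in NaCl, removal of the trend gave 3 and 3, and no filter gave 5 in NaCl. Without 1 library they ran from 5 to 10 for NaCl in either genotype, 2 to 10 in NaCl and 1 to 5 for the difference, and were 0 on MS throughout.

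Changes that turned sign were all uncalled: MIPS1 on MS (0.012 with 5 TPM, 0.033 with the block), SIP2 for genotype in NaCl (−0.0061 with a pseudocount of 0.1, −0.020 with nuclear rescaling) and the GOLS4 difference of responses (−0.021 with the trend removed). Without 1 library, the ranges that crossed 0 were −0.082 to 0.24 for SIP2 with NaCl in sos2-2, −0.12 to 0.25 for GOLS4 and −0.12 to 0.066 for MIPS1 on MS, −0.020 to 0.41 for GOLS4 and −0.023 to 0.089 for SIP2 between genotypes in NaCl, and −0.11 to 0.33 for GOLS4 and −0.013 to 0.31 for DIN10 in the difference of responses. Over all genes, median centring moved calls between genotypes in NaCl to 821 higher and 936 lower, against 3138 and 67 as deposited, to 764 and 697, against 937 and 155, for NaCl in sos2-2, to 636 and 1053, against 281 and 1277, for NaCl in WT, and to 635 and 1070, against 258 and 204, on MS. The cause of these moves was not tested. Other calls that changed were GOLS1 with no filter (adjusted p = 0.0725 in sos2-2 and 0.102 in WT) and with the trend removed (0.0545 in sos2-2), SIP2 for NaCl in WT in a fit of the 2 groups (0.0626), and MIPS1, which passed in sos2-2 with the trend removed (0.0200).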

Other observations

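The other galactinol synthase genes were near 0. GOLS5 averaged 0.139 TPM in sos2-2 in NaCl, 0.0802 TPM in WT in NaCl and 0.0313 TPM in WT on MS, and was listed at 0 in both sos2-2 libraries on MS. GOLS6 and GOLS7 averaged at most 0.0462 TPM in any group, and GOLS10 was listed at 0 in all 11 libraries. The cold factors CBF1, CBF2 and CBF3 averaged at most 0.118 TPM in any group. SUS3, a sucrose synthase gene below the level for testing and chosen after its values were seen, averaged 1.42 ± 0.264 TPM in sos2-2 in NaCl and 0.256 ± 0.0514 TPM in sos2-2 on MS, against 0.797 ± 0.365 TPM in WT in NaCl and 0.355 ± 0.0854 TPM in WT on MS (SD, n = 3, 2, 3 and 3).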
